A study of Mus musculus with 22 samples.

Results

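Npas4, Arnt and Arnt2 encode a neuronal transcription factor and its DNA-binding partners, and their RNA is described here in depolarized mouse cortical neurons that received different forms of the transcription factor CREB. The members were chosen by gene symbol, and each symbol matched 1 entry, which makes 3 of the 24490 gene entries measured in each of 22 libraries. The proteins belong to the bHLH-PAS family, named for a basic helix-loop-helix that contacts DNA and for PAS domains that pair the proteins. Npas4 is an immediate early gene of neurons: calcium entry switches on its transcription without new protein synthesis, and the protein shapes synapses through target genes such as Bdnf. The protein binds DNA as a dimer with Arnt2 or Arnt, which are general partners that also serve the hypoxia-inducible factors and the aryl hydrocarbon receptor, and Arnt2 is a known neuronal partner of Npas4.

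The neurons came from E16.5 embryos of the C57BL/6 strain, carried the label Creb1-/- and were 7 days old in culture when treated. Herpes simplex virus supplied S40A-S133A, a CREB with neither its glycosylation site nor its phosphorylation site, S133A, without the phosphorylation site, S40A, without the glycosylation site, WT CREB, or GFP as the control. At 8 h of virus there were 2 libraries each of S40A-S133A and S133A, and 4 each of S40A, WT and GFP. At 4 h there were 2 each of S40A, WT and GFP. Every library, GFP included, came from neurons silenced with TTX (1 µM), which blocks sodium channels, plus D-AP5 (100 µM), which blocks NMDA receptors, and then depolarized for 2 h with 55 mM KCl, so an undepolarized level of Npas4 is not part of the comparison. The question of the design is whether CREB without 1 or both sites changes activity-driven transcription. The labels give neither the share of cells infected nor the promoter driving each CREB. Whether replicates are different cultures is not labelled either, so each p-value reflects the spread among these libraries alone, which may be technical.

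Levels are Cufflinks FPKM, fragments per length of transcript and per library size, scaled between libraries here (scaled FPKM). Libraries were sorted into runs by the numbers in their file names: at 4 h run B holds replicate 2 and run A replicate 1 of each virus. At 8 h runs C1 and C2 hold replicates 1 and 2 of S40A, WT and GFP, and runs D1 and D2 hold replicates 3 and 4 of these and replicates 1 and 2 of S133A and S40A-S133A. The 3 run A files differ from the rest, since 14.6% to 15.5% of their genes over 1 FPKM lie outside their own deposited interval, against at most 0.0525% elsewhere. Creb1 RNA, the check of the virus labels, was 555 to 2314 scaled FPKM in the CREB libraries at 8 h and 236 to 269 at 4 h, against 9.69 to 15.9 in the 6 GFP libraries. All 8 excitatory neuron markers and 9 of 11 inhibitory neuron markers reached a mean of 1 FPKM, as did 2 of 9 microglial and 2 of 8 vascular markers, while the summed astrocyte and radial glia markers ran from 64.3 to 787 scaled FPKM. Oligodendrocyte lineage markers reached that mean in 6 of 7 cases, summing to 24.3 to 109 scaled FPKM. Dividing progenitor markers did in 6 of 6, summing to 7.92 to 114. Replicate 2 of GFP at 8 h, in run C2, stood apart: its highest correlation with any other library over 12118 genes was 0.858, against 0.915 to 0.943 for the rest. The files hold no counts, and the deposited 95% intervals outside run A were at most 3.65% of the value wide on either side for Npas4, 3.21% for Arnt2 and 10.7% for Arnt, which covers counting error only.

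The promoters are shown because CREB binds the cAMP response element (CRE), TGACGTCA, and its shorter form TGACG, so the letters show which members carry one near the start. They are the 250 bases before each transcription start, from RefSeq (GRCm38.p6), 5′ to 3′ on the gene's strand, with CRE matches in capitals.
Npas4: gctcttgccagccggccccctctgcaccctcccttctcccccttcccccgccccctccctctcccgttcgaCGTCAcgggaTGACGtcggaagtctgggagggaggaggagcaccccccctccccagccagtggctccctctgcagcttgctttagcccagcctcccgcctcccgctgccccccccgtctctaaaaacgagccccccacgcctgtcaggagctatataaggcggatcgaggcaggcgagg
Arnt: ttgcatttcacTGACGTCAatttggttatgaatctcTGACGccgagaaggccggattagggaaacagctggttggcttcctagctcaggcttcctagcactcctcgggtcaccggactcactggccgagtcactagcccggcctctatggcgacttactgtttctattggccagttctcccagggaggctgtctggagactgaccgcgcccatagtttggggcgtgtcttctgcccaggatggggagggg
Arnt2: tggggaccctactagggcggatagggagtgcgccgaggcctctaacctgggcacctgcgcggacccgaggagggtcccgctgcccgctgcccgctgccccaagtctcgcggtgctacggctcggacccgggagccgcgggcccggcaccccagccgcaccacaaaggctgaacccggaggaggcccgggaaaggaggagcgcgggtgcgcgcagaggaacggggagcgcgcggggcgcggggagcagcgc

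The Npas4 sequence (chr19:4989972-4990221, minus strand) held 2 short sites, 1 on each strand, whose leading bases lie 179 and 169 bases before the start. The Arnt sequence (chr3:95434140-95434389, plus strand) held a full CRE 239 bases before the start and a separate short site at 214 bases. The Arnt2 sequence (chr7:84410039-84410288, minus strand) held no match to either. Over windows that add 50 bases after the start, 1.79% of 32851 RefSeq promoters held a full CRE and 20.8% a short site on either strand. Every full CRE also contains the short site on both strands. The E-box CACGTG, in 7.15% of promoters, the core TCGTG reported for Npas4 with Arnt2, in 16.0%, and TATAAA, in 13.6%, were searched on both strands and matched none of the 3. Only exact letters were counted, so a variant such as the tatataag near the end of the printed Npas4 sequence was not. These letter matches are not evidence of binding, and a window without a match says nothing of sites elsewhere. GC content of these windows was 69.3% for Npas4, 59.3% for Arnt and 76.7% for Arnt2, against a median of 52.7% over all promoters.

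Npas4 (chromosome 19, 4984355 to 4989971, minus strand, mm10) has 8 exons in its longest coding transcript and overlaps no other annotated gene. At 4 h its level was 309 scaled FPKM in run B and 63.7 in run A with S40A, 363 and 137 with WT, and 312 and 98.1 with GFP. All 3 run B libraries lay above all 3 run A libraries, while the 3 viruses overlapped. At 8 h the later runs D2 and D1 gave 148 and 74.9 scaled FPKM with S40A-S133A, and 155 and 85.9 with S133A. The libraries of D2, D1, C2 and C1 held 174, 84.1, 75.0 and 147 with S40A, 84.8, 36.5, 224 and 170 with WT, and 185, 32.3, 148 and 186 with GFP. Every CREB form overlapped GFP, and the lowest Npas4 level of all 22 libraries was in a GFP library of run D1 while the highest was in a WT library of run B. That range was 11.3-fold, with a coefficient of variation of 59.6%, against a 2.44-fold range for Arnt and a 1.89-fold range for Arnt2.

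**Figure D1:**
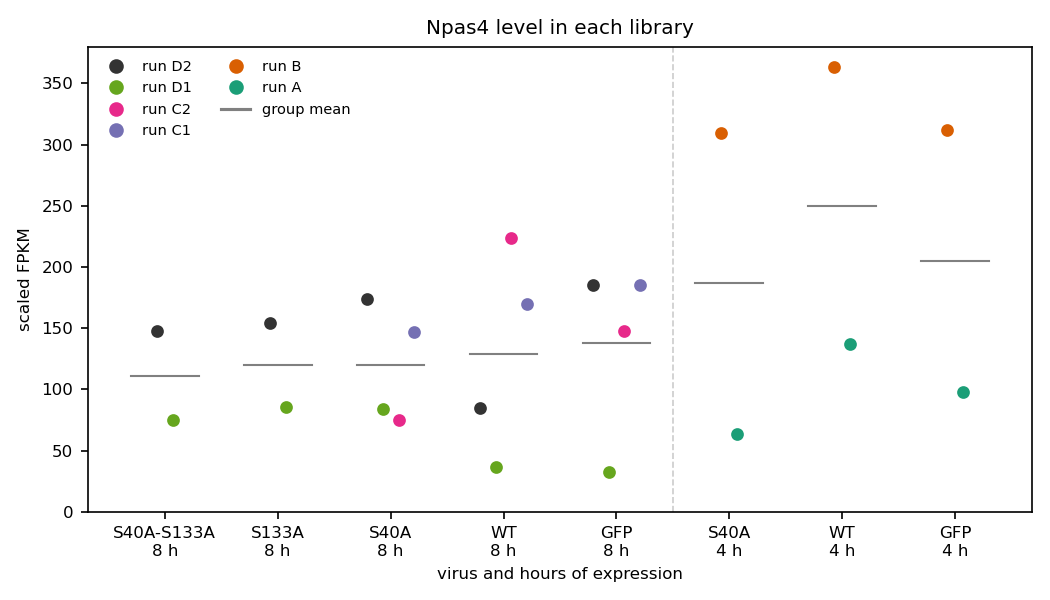
Npas4 RNA in each of the 22 libraries (points, scaled FPKM, axis from 0), by virus and hours of expression, coloured by run, with group means as grey lines. Levels run from 32.3 to 363, the run D2 libraries lie above those of run D1 and the run B libraries above those of run A for each virus, and the viruses overlap at both times.

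Npas4 levels overlapped between the CREB forms and GFP. At 8 h its level averaged 111 ± 51.4 scaled FPKM with S40A-S133A and 120 ± 48.6 with S133A (SD, n = 2 each), 120 ± 48.2 with S40A, 129 ± 83.9 with WT and 138 ± 72.5 with GFP (SD, n = 4 each). At 4 h its level averaged 187 ± 174 with S40A, 250 ± 160 with WT and 205 ± 151 with GFP (SD, n = 2 each). From the highest mean to the lowest the groups ran WT, GFP and S40A at 4 h, then GFP, WT, S133A, S40A and S40A-S133A at 8 h. Every neighbouring pair in this order overlapped. The 8 h order mixes runs, since S133A and S40A-S133A cover only D2 and D1, where WT was 84.8 and 36.5 and GFP 185 and 32.3. The fitted 8 h differences below carry a term for the earlier or later library set, which these means do not. All differences below are log2 differences of scaled FPKM plus 1 with 95% intervals, from limma fits over 12097 genes, and calls need an adjusted p below 0.05. At 8 h the Npas4 difference from GFP was 0.34 (-1.30 to 1.97) with S40A-S133A, 0.47 (-1.17 to 2.10) with S133A, -0.01 (-1.27 to 1.25) with S40A and -0.12 (-1.38 to 1.14) with WT. The interval for WT over GFP spans Npas4 levels from 0.383-fold to 2.21-fold. Without replicate 2 of GFP these Npas4 differences were 0.32, 0.45, -0.03 and -0.14 in the same order. At 4 h the difference from GFP was -0.31 (-3.21 to 2.58) with S40A and 0.35 (-2.55 to 3.24) with WT.

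Npas4 levels of the CREB mutants overlapped those of WT as well. At 8 h Npas4 differed from WT by 0.46 (-1.18 to 2.09) with S40A-S133A, by 0.59 (-1.05 to 2.22) with S133A and by 0.11 (-1.15 to 1.37) with S40A. At 4 h S40A differed from WT by -0.66 (-3.56 to 2.23). With run as a block at 4 h, where libraries of 1 run deviated from their group means together, the Npas4 intervals narrowed to -1.37 to 0.05 for S40A minus WT, -1.02 to 0.40 for S40A minus GFP and -0.36 to 1.06 for WT minus GFP. All 3 still included 0. Within single runs the S40A difference from WT changed sign: it was -0.23 in run B, -1.09 in run A, -1.56 in C2 and -0.21 in C1, but 1.03 in D2 and 1.18 in D1. In runs D2 and D1, which alone hold all 4 CREB forms, Npas4 was above WT by 0.79 and 1.02 with S40A-S133A and by 0.86 and 1.21 with S133A, where the WT levels of 84.8 and 36.5 were also below the 8 h WT levels of 170 and 224 in the earlier runs. Against GFP the Npas4 differences changed sign between D2 and D1: -0.32 and 1.19 with S40A-S133A, and -0.26 and 1.39 with S133A. They were -0.09 and 1.36 with S40A and -1.12 and 0.17 with WT. The GFP library of D1 held the lowest Npas4 level of all. These within-run values have 1 library on each side and no test. The WT effect on Npas4 at 8 h minus that at 4 h was -0.47 (-2.87 to 1.93), and for S40A the same quantity was 0.30 (-2.10 to 2.70).

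No member was called by limma in any of the 13 virus comparisons, and at an unadjusted p under 0.05 the count over the 39 member tests was also 0, with a lowest adjusted p of 0.827 for Arnt2. Few genes were called in these comparisons at all, so the members' count of 0 is close to the background. Called genes made up 0.00827% of those tested for WT minus GFP and for S40A minus GFP at 8 h, 0.0248% for S133A minus GFP and for the mean of the 4 CREB forms minus GFP, and 0.0165% for S40A-S133A minus GFP. Against WT at 8 h the shares were 0.00827% for S40A-S133A, 0.0165% for S133A and 0 for S40A, where 514 genes had an unadjusted p under 0.05. Each of the 3 comparisons at 4 h called 0.0909%, which is 11 genes, against 7 for S40A minus WT with run as a block, and the differences between the 8 h and 4 h effects called 0.0165% for WT and 0.00827% for S40A. Creb1 was called in all 7 comparisons of a CREB form with GFP, by 4.08 log2 units for WT at 4 h and by 6.39 at 8 h, as limma's adjusted p-values of 0.0136 and 0.000901 record.

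**Figure D2:**
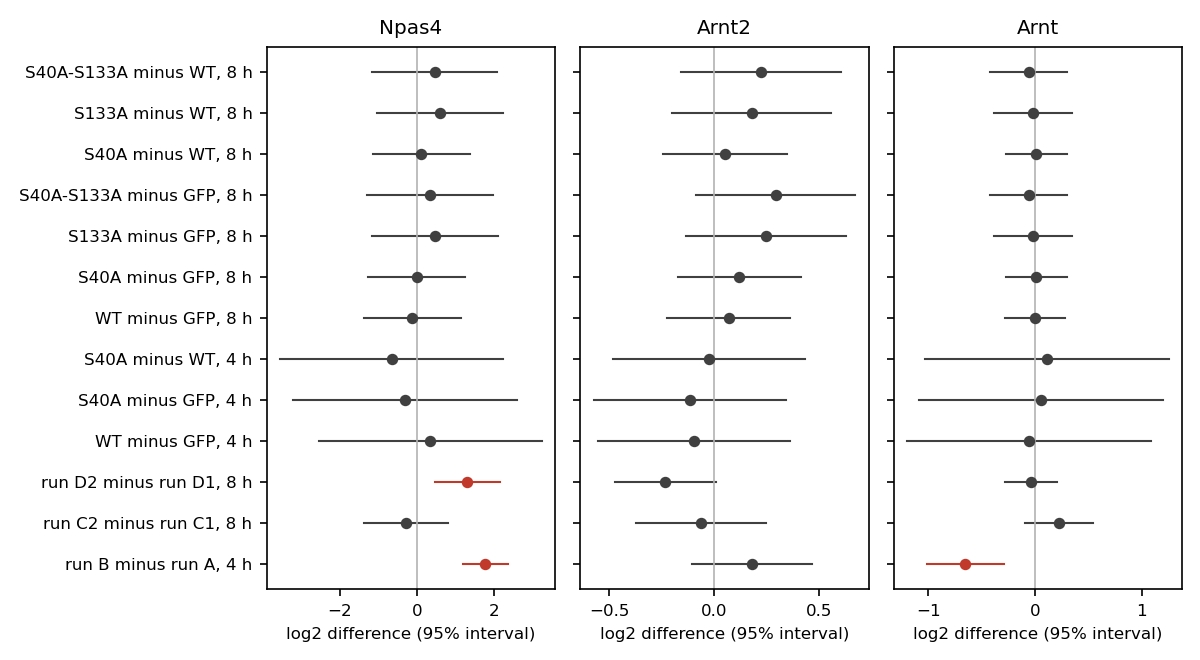
Log2 differences of Npas4, Arnt2 and Arnt (points) with 95% intervals (lines) in 10 virus comparisons and 3 run comparisons, each panel on its own axis, with calls at an adjusted p under 0.05 in red. The virus intervals all include 0, and the red points are Npas4 for run D2 minus run D1 and for run B minus run A, and Arnt for run B minus run A.

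Arnt2 (chromosome 7, 84246275 to 84410038, minus strand, mm10, 20 exons in its longest coding transcript) was the more abundant of the Npas4 partners in every library. An snRNA entry and an antisense gene overlap it in the annotation, and since strand handling is not given, reads of these cannot be told apart. At 4 h Arnt2 was 56.3 scaled FPKM in run B and 44.8 in run A with S40A, 56.3 and 46.2 with WT, and 53.5 and 55.7 with GFP. At 8 h runs D2 and D1 gave 34.6 and 46.6 with S40A-S133A, and 32.3 and 46.8 with S133A. Runs D2, D1, C2 and C1 gave 35.4, 42.0, 34.3 and 38.5 with S40A, 29.9, 34.2, 41.2 and 40.2 with WT, and 34.6, 29.8, 36.0 and 37.5 with GFP. The groups overlapped within each time, and the 16 libraries at 8 h (29.8 to 46.8) lay mostly below the 6 at 4 h (44.8 to 56.3). The times were read in different runs, so time and run cannot be told apart and this difference was not tested.

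The group means of Arnt2 at 8 h were 40.6 ± 8.44 scaled FPKM for S40A-S133A and 39.5 ± 10.3 for S133A (SD, n = 2 each), 37.5 ± 3.46 for S40A, 36.4 ± 5.31 for WT and 34.5 ± 3.33 for GFP (SD, n = 4 each). At 4 h they were 50.5 ± 8.10 for S40A, 51.3 ± 7.13 for WT and 54.6 ± 1.59 for GFP (SD, n = 2 each). The order from high to low was GFP, WT and S40A at 4 h, then S40A-S133A, S133A, S40A, WT and GFP at 8 h, with every neighbouring pair overlapping. The 8 h means of S40A-S133A and S133A cover only runs D2 and D1, so this order too mixes runs. The Arnt2 difference from GFP at 8 h was 0.29 (-0.09 to 0.67) with S40A-S133A, 0.25 (-0.13 to 0.63) with S133A, 0.12 (-0.17 to 0.42) with S40A and 0.07 (-0.23 to 0.36) with WT. All 4 estimates were above 0, they share the GFP libraries, and their mean of 0.18 (-0.07 to 0.43) did not pass limma's test (adjusted p = 0.827). In the same order, run D1 gave 0.63, 0.63, 0.48 and 0.19, where GFP held the lowest Arnt2 level of all libraries. Run D2 gave 0.00083, -0.10, 0.03 and -0.21. In C2 and C1 the values were -0.07 and 0.03 with S40A, and 0.19 and 0.10 with WT. These single-run values have 1 library on each side and no test. Against WT at 8 h, Arnt2 differed by 0.22 (-0.16 to 0.60) with S40A-S133A, 0.18 (-0.20 to 0.56) with S133A and 0.05 (-0.24 to 0.35) with S40A. At 4 h it differed from GFP by -0.12 (-0.58 to 0.34) with S40A and by -0.09 (-0.55 to 0.36) with WT, and S40A differed from WT by -0.02 (-0.48 to 0.44). With run as a block the Arnt2 intervals at 4 h narrowed to -0.47 to 0.23, -0.45 to 0.26 and -0.37 to 0.33, in the same order. The 8 h effect minus the 4 h effect on Arnt2 was 0.16 (-0.33 to 0.66) for WT and 0.24 (-0.26 to 0.74) for S40A. The Arnt2 intervals are narrow enough to place WT over GFP at 8 h between 0.855-fold and 1.29-fold.

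**Figure D3:**
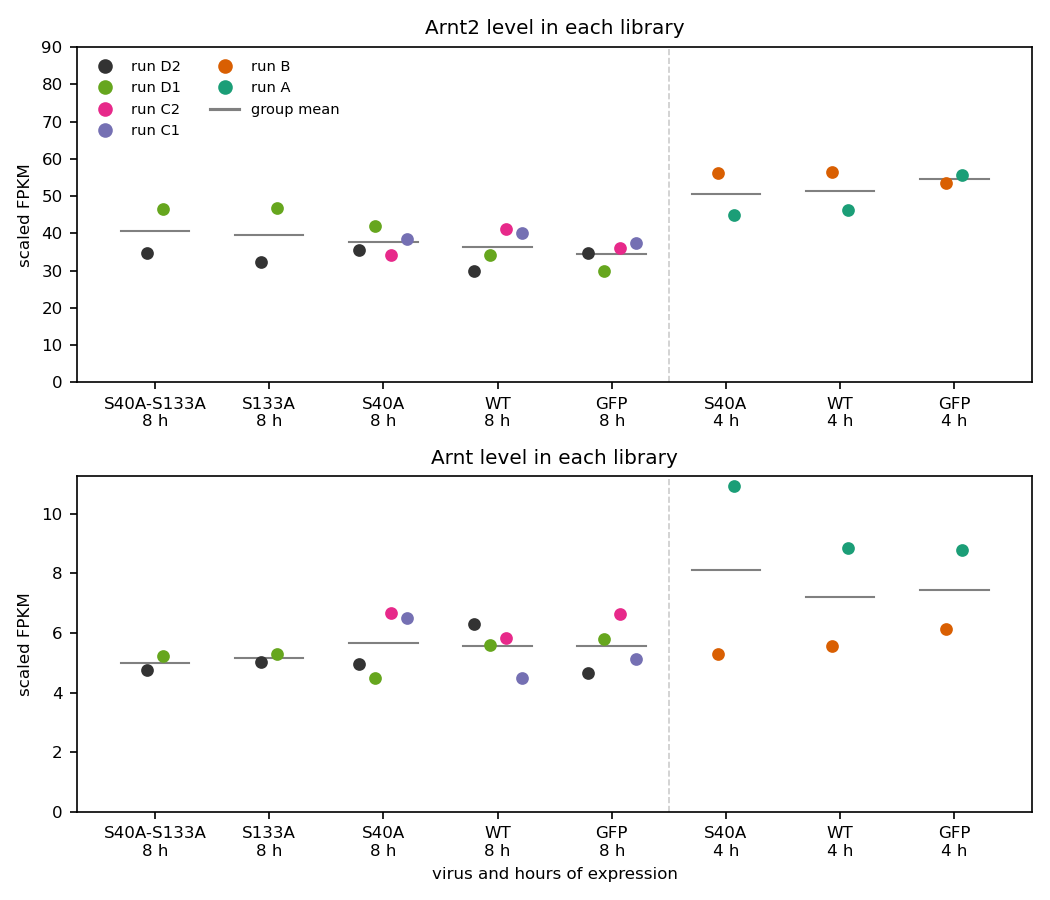
Arnt2 (upper panel) and Arnt (lower panel) RNA in each library (points, scaled FPKM, axes from 0), by virus and hours, coloured by run, with group means as grey lines. Arnt2 stays between 29.8 and 56.3 and Arnt between 4.48 and 10.9, with the highest 3 Arnt values in run A.

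Arnt (chromosome 3, 95434390 to 95497239, plus strand, mm10, 21 exons in its longest coding transcript) overlaps a processed pseudogene in the annotation. At 4 h it was 5.31 scaled FPKM in run B and 10.9 in run A with S40A, 5.57 and 8.84 with WT, and 6.13 and 8.78 with GFP. At 8 h runs D2 and D1 gave 4.76 and 5.24 with S40A-S133A, and 5.02 and 5.31 with S133A. Runs D2, D1, C2 and C1 gave 4.95, 4.49, 6.67 and 6.51 with S40A, 6.31, 5.60, 5.84 and 4.48 with WT, and 4.67, 5.82, 6.64 and 5.13 with GFP. Outside run A all 19 libraries lay between 4.48 and 6.67, and the viruses overlapped.

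Group means of Arnt at 8 h were 5.00 ± 0.338 scaled FPKM for S40A-S133A and 5.17 ± 0.204 for S133A (SD, n = 2 each), 5.65 ± 1.10 for S40A, 5.56 ± 0.777 for WT and 5.56 ± 0.858 for GFP (SD, n = 4 each). At 4 h they were 8.13 ± 3.98 for S40A, 7.20 ± 2.31 for WT and 7.46 ± 1.87 for GFP (SD, n = 2 each). The order from high to low was S40A, GFP and WT at 4 h, then S40A, GFP, WT, S133A and S40A-S133A at 8 h, with every neighbouring pair overlapping. The 8 h order mixes runs, since S133A and S40A-S133A cover only D2 and D1. In those runs S40A was 4.95 and 4.49, below WT at 6.31 and 5.60. At 8 h the Arnt difference from GFP was -0.06 (-0.42 to 0.30) with S40A-S133A, -0.02 (-0.38 to 0.34) with S133A, 0.01 (-0.27 to 0.30) with S40A and -0.00013 (-0.28 to 0.28) with WT. The interval for WT places its Arnt level at 0.822-fold to 1.22-fold that of GFP. From WT at 8 h Arnt differed by -0.06 (-0.42 to 0.30) with S40A-S133A, by -0.02 (-0.38 to 0.34) with S133A and by 0.01 (-0.27 to 0.30) with S40A. At 4 h Arnt differed from GFP by 0.06 (-1.09 to 1.20) with S40A and by -0.06 (-1.20 to 1.09) with WT, and S40A from WT by 0.11 (-1.03 to 1.26). With run as a block the Arnt intervals at 4 h narrowed to -0.39 to 0.50, -0.50 to 0.39 and -0.33 to 0.55, in the same order. The 8 h effect minus the 4 h effect on Arnt was 0.06 (-0.65 to 0.76) for WT and -0.04 (-0.75 to 0.67) for S40A. For the mean of the 4 CREB forms at 8 h, the difference from GFP was 0.17 (-0.91 to 1.25) for Npas4 and -0.02 (-0.26 to 0.22) for Arnt.

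FPKM is per length of transcript, so the level of Npas4 can be set beside its partners. The Arnt2 level was 4.10 to 10.6 times that of Arnt, with a median of 7.10, and Arnt2 made up 80.4% to 91.4% of the summed level of both partners. Npas4 RNA stood at 0.906 to 5.87 times that sum. In 2 libraries, WT and GFP in run D1 (0.917 and 0.906), Npas4 lay below the sum, and in the other 20 it lay above. The median of this ratio per run was 5.24 in B and 1.52 in A, 4.15 in D2 and 1.45 in D1, and 3.47 in C2 and 3.80 in C1. These are ratios of RNA in whole cultures, in which fewer cells with a transcript and less transcript per cell cannot be told apart, and protein was not measured.

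Npas4 differed between runs that held the same viruses. At 4 h run B exceeded run A by a log2 difference of 1.77 (1.20 to 2.35, limma adjusted p = 0.0122), higher with 3 of 3 viruses and by 2.65 to 4.86 times, beside 41.1% of all genes called. At 8 h run D2 exceeded run D1 by 1.31 (0.46 to 2.15, limma adjusted p = 0.0331), higher with 5 of 5 viruses and by 1.80 to 5.74 times, beside 23.8% of all genes called. Run C2 minus C1 was -0.30 (-1.38 to 0.79), higher with 1 of 3 viruses, beside 0% of genes called by limma and 1075 at an unadjusted p under 0.05. The D2 call was lost without a low-value filter (limma adjusted p = 0.0521) and when GFP replicate 3 or 4, WT replicate 3, S40A replicate 4, or either replicate of S133A or S40A-S133A was left out (0.0663 to 0.0903). The B call was lost without either WT or either S40A library at 4 h (limma adjusted p = 0.0520 to 0.0581), and the run A files are those whose Npas4 values lie outside their own deposited intervals. Creb1 was 555 to 745 scaled FPKM in the 4 CREB libraries of D1 and 1861 to 2314 in those of D2. With GFP it was 11.3 in D2 and 14.9 in D1, where the Npas4 ratio was 5.74. Any part of the Creb1 level in the Npas4 differences was not tested.

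Some cell type markers also differed between these runs, and their part in the Npas4 and Arnt differences was not tested. In B minus A the median log2 difference was -1.12 for 6 dividing progenitor markers, with 3 called lower, and -0.66 for 8 astrocyte and radial glia markers, with 0 called. It was 0.35 for 8 excitatory neuron markers, with 4 called higher and 1 lower, and 0.30 for the 9 tested inhibitory neuron markers, with 2 called higher. Of all genes, 20.1% were called higher and 21.0% lower in B minus A. The summed level of the dividing progenitor markers was 31.9 to 36.1 scaled FPKM in run B and 55.0 to 114 in run A, that of the astrocyte and radial glia markers 189 to 310 and 248 to 787, that of the excitatory markers 289 to 326 and 234 to 260, and that of the inhibitory markers 608 to 696 and 579 to 790, run B before run A each time. The first and the third of these sums did not overlap between the runs, beside 41.1% of all genes called in B minus A. How many of all genes lacked overlap was not counted. The summed oligodendrocyte lineage markers overlapped, at 62.3 to 109 in run B and 53.7 to 83.0 in run A. In D2 minus D1 the medians were 0.27 for the dividing progenitor markers, with 1 called higher, 0.26 for the astrocyte and radial glia markers and 0.05 for the excitatory markers, with 0 called in both, and 0.29 for the inhibitory markers, with 2 called higher. Of all genes, 12.0% were called higher in D2 minus D1. All of these sums overlapped between D2 and D1, among them the inhibitory markers at 412 to 605 in D2 and 291 to 469 in D1. Over the 22 libraries all 9 inhibitory markers had a positive coefficient with Npas4 (0.215 to 0.860, median 0.497), which stayed positive for 9 with run means removed. The median for the astrocyte and radial glia markers was -0.145 and with run means removed -0.498, though Sox9 among them had 0.705 and 0.506. Coefficients were also positive for 5 of 8 excitatory, 6 of 6 oligodendrocyte lineage, 4 of 6 dividing progenitor, 2 of 2 microglial and 1 of 2 vascular markers. With run means removed these counts were 5, 1, 5, 2 and 0.

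Arnt moved the other way at 4 h and the partners did not pass elsewhere. Run B was below run A by a log2 difference of -0.65 (-1.01 to -0.29, limma adjusted p = 0.0290) for Arnt, lower with 3 of 3 viruses at 0.486 to 0.698 times, beside 21.0% of all genes called lower. That call too was lost without a low-value filter (limma adjusted p = 0.0579) and without either WT or either S40A library (0.115 to 0.127). For Arnt, D2 minus D1 was -0.04 (-0.28 to 0.21) and C2 minus C1 0.22 (-0.10 to 0.54). For Arnt2, B minus A was 0.18 (-0.11 to 0.47), D2 minus D1 -0.23 (-0.47 to 0.01) and C2 minus C1 -0.06 (-0.37 to 0.25). The D2 minus D1 difference passed with FPKM as deposited (-0.39, limma adjusted p = 0.0091), a setting that called 4437 genes there. It also passed without GFP replicate 3 (-0.32, limma adjusted p = 0.0447). Arnt2 in B minus A passed without either GFP library at 4 h (0.30, limma adjusted p = 0.0292).

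Among the genes whose level followed Npas4 most closely over the 22 libraries, of 8122 compared, were Irf2bp2 (Pearson r = 0.955), Atf4 (0.954), Sik1 (0.950), Cited2 (0.949), Mn1 (0.949), Nr4a1 (0.944) and Elmsan1 (0.944). Sik1 is a salt-inducible kinase and Nr4a1 an orphan nuclear receptor of the immediate early class, Atf4 a stress-responsive bZIP factor and Cited2 a CBP/p300-binding regulator. With each run's mean removed the coefficients of these genes stayed between 0.841, for Elmsan1, and 0.958, for Nr4a1. Closest to Arnt2 were Ppm1a (0.943), Trp53bp1, Kif3c, Spin1, Lss, Jund, Scarb2 and Kif5c (0.924), and closest to Arnt were Tnrc6a (0.928), Simc1, Klc4, Cnpy4, Fubp3, Lactb, Yeats2 and Slc25a36 (0.891). With run means removed the coefficients of the genes closest to Arnt2 lay between 0.759 and 0.920, and those of the genes closest to Arnt lay between 0.498, for Cnpy4, and 0.789, for Lactb. Npas4 correlated with Arnt2 at 0.453 (0.772 with run means removed) and with Arnt at -0.234 (-0.673), and Arnt with Arnt2 at 0.263 (-0.531). These coefficients describe 22 libraries that share runs and scaling factors, and were not tested.

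**Figure D4:**
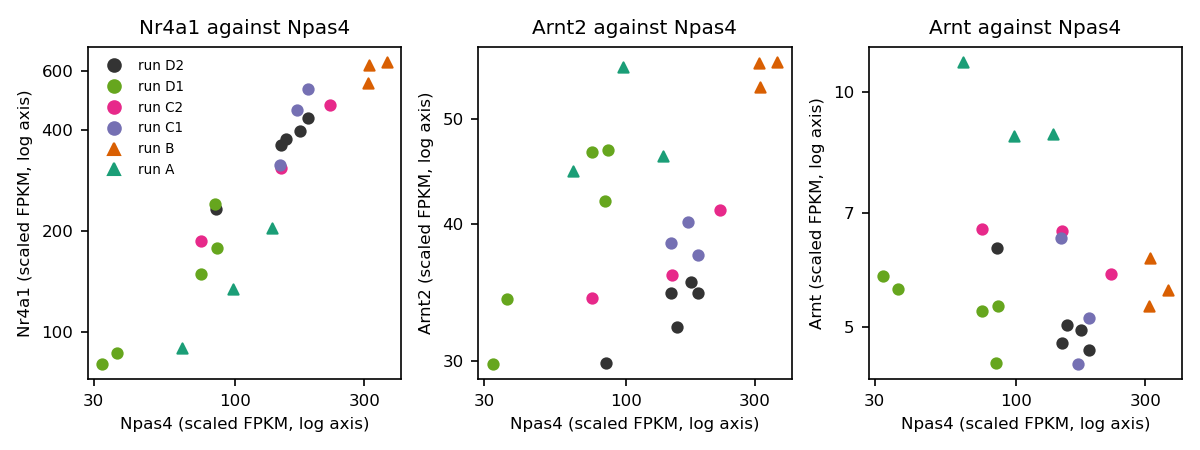
Nr4a1, Arnt2 and Arnt levels against the Npas4 level, 1 point per library (scaled FPKM, log axes), coloured by run, with circles for 8 h and triangles for 4 h. Nr4a1 climbs with Npas4 over the whole range (r = 0.944), while Arnt2 (0.453) and Arnt (-0.234) follow it less closely.

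The other immediate early genes showed the same run pattern. All 21 listed genes had a positive coefficient with Npas4, from 0.170 for Arc to 0.944 for Nr4a1, with a median of 0.784, and 19 stayed positive with run means removed. In B minus A 19 of the 21 were called higher, beside 20.1% of all genes, with a median log2 difference of 1.86 against -0.01 for all genes. In D2 minus D1 18 were, beside 12.0% of all genes, with a median of 1.19 against 0.01. The exceptions were Jund and Ier5 at 4 h, and Fos, Jund and Ier2 at 8 h. Fos, which pairs with Jun proteins in the AP-1 factor, ranged from 465 to 712 scaled FPKM in run D2 and from 225 to 510 in run D1. The effector Arc differed by 1.37 in D2 minus D1 and by 0.90 in B minus A, and Egr1, a zinc finger factor, by 0.71 and 1.50, each called by limma. None of the 21 was called in any of the 13 virus comparisons, in which 0% to 0.0909% of all genes were. Their estimates lay on both sides of 0 in most of these: at 4 h 21 of 21 were above 0 for WT minus GFP (median 0.36), 9 for S40A minus GFP (-0.051) and 2 for S40A minus WT (-0.50), and at 8 h 9 were for WT minus GFP (-0.034) and 13 for S40A minus GFP (0.020). For S40A minus WT the lean at 8 h was opposite to that at 4 h, with 16 above 0 (0.085). At 8 h 17 were above 0 for S133A minus WT (0.26) and 15 for S40A-S133A minus WT (0.14). Against GFP at 8 h 15 were for S133A (0.24) and 13 for S40A-S133A (0.15). Comparisons with the same control share its libraries. Of all genes, 47.5% to 51.4% were above 0 in the comparisons given here.

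Of 7 reported Npas4 targets, Bdnf, a neurotrophin, was called higher in D2 than D1 by a log2 difference of 1.94 (limma adjusted p = 0.00909) and in B than A by 1.02 (limma adjusted p = 0.0259). Its level correlated with Npas4 at 0.793 over the 22 libraries, and at 0.750 with run means removed. Over all 7 targets the median coefficient was 0.642, and 0.182 with run means removed, with 5 of 7 positive each time. The kinase gene Pim1 differed by 2.15 in D2 minus D1 and by 1.69 in B minus A, the G-protein regulator Rgs2 by 1.61 and 0.80, and the kinase gene Plk2 by 0.97 and 1.14, each called by limma. Nptx2, a synaptic pentraxin, was called in D2 minus D1 (0.76) and had 0.32 in B minus A, while Syt10, a synaptotagmin, was called in B minus A (0.45) and had -0.26 in D2 minus D1. Mdm2, a ubiquitin ligase for p53, was called in neither, at 0.16 and -0.26. The list thus had 5 of 7 members called higher in each of these run comparisons, beside 12.0% of all genes in D2 minus D1 and 20.1% in B minus A. In the 13 virus comparisons 0 of 7 were called, beside 0% to 0.0909% of all genes. Nptx2 and Syt10 correlated negatively with Npas4 (-0.160 and -0.181).

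Within the family Npas4 had the highest mean level, 150 scaled FPKM over the 22 libraries, followed by Arnt2 at 41.2 and Hif1a, the oxygen-regulated partner of Arnt, at 21.7. The coactivators Ncoa1, Ncoa2 and Ncoa3 stood at 18.1, 18.0 and 11.5, the circadian factors Arntl and Clock at 14.8 and 6.08, and Arnt at 6.05. Npas3, Npas1, Npas2 and the aryl hydrocarbon receptor Ahr lay between 5.32 and 2.67, and Epas1 and Arntl2 at 1.08 each. Ahrr, Hif3a, Sim2 and Sim1 had means under 1 FPKM and were not tested. Of the 15 tested family genes 0 were called by limma in the 13 virus comparisons, beside 0% to 0.0909% of all genes. In D2 minus D1 4 of the 15 were called, beside 23.8% of all genes, and besides Npas4 these were Clock (0.48), Npas1 (0.33) and Epas1 (0.66), all higher. In B minus A 8 of the 15 were called, beside 41.1% of all genes, and besides Npas4 these were Clock (0.60), Npas1 (0.50), Ncoa1 (0.45) and Ncoa2 (0.27), which were higher, and Npas2 (-1.18), Arntl (-0.50) and Arnt, which were lower.

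**Figure D5:**
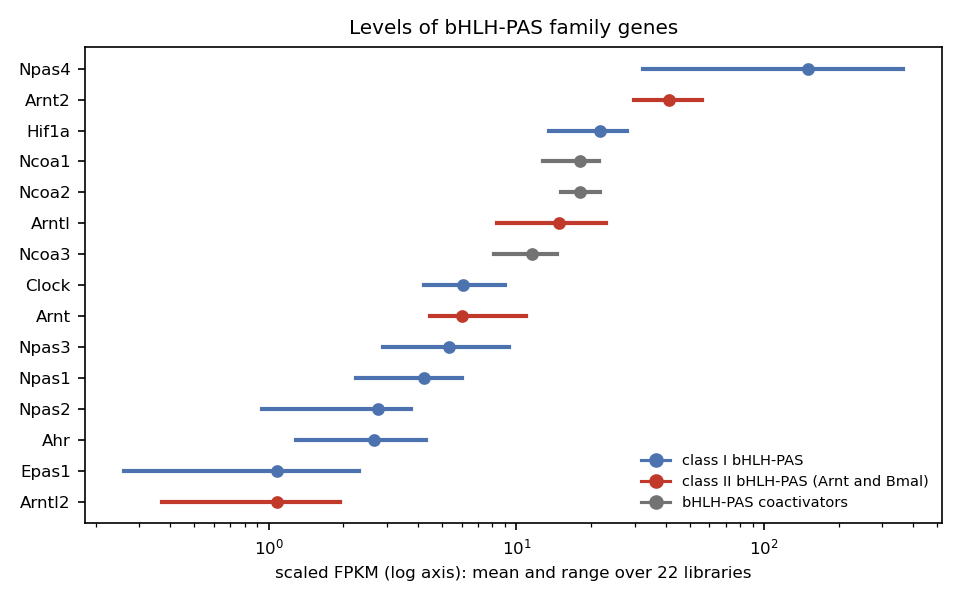
Mean (points) and range over 22 libraries (lines) of the 15 bHLH-PAS family genes that reached the 1 FPKM mean (scaled FPKM, log axis), coloured by class. Npas4 has the highest mean and the widest absolute range, 32.3 to 363, and Arnt2 lies above Arnt throughout.

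Genes that other Arnt partners are known to drive were looked at in the same way. Of 12 hypoxia-inducible factor targets 11 were matched and tested, and of 6 aryl hydrocarbon receptor targets 1, Tiparp, reached the minimum. Limma called 0 of these 12 genes in the 13 virus comparisons, beside 0% to 0.0909% of all genes. Tiparp, an ADP-ribosyltransferase gene, correlated with Npas4 at 0.795 and was called higher in D2 than D1 by 1.34 and in B than A by 2.16. The 11 hypoxia-inducible factor targets had a median correlation of -0.08 with Npas4, with 4 called higher in D2 minus D1, beside 12.0% of all genes. In B minus A 1 was called higher and 4 lower, beside 20.1% and 21.0% of all genes.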

How the data were processed

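RNA of cultured neurons was sequenced on an Illumina instrument in 22 libraries. The authors deposited Cufflinks FPKM per gene with an interval, and CASAVA 1.7, Bowtie 0.12.2, Cufflinks and the builds mm8 and mm10 are named, without a role, per the submitters' processing notes. Gene positions fall on mm10. The sources used here do not say how strand or multiply matching reads were handled.

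FPKM were scaled by median-of-ratios factors, 1 FPKM was added and log2 taken, so differences of low genes are understated. A mean of 1 FPKM was reached by 12118 genes, and without 21 failed estimates 12097 were tested. Limma 3.58.1 (R 4.3.3) with a trend and Benjamini-Hochberg adjustment fitted the 16 libraries at 8 h with a library set term (runs D against C; 10 residual degrees of freedom), the 6 at 4 h (3), all 22 for differences between times (13), and virus plus run for run differences (8 at 8 h, 2 at 4 h). The fit was tested on simulated data. No 2 libraries held identical values. At 4 h the deviations of same-numbered libraries from their group means correlated at 0.546 to 0.563 for all 3 pairs of viruses, and the numbers follow the runs of the file names, so they were taken to pair these libraries. Tables and figures used pandas 2.3.3, numpy 2.4.6 and matplotlib 3.10.9 in Python 3.11.15. Groups came from the labels, runs from numbers in file names.

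Alternatives were a pseudocount of 0.1, no filter, a minimum of 5 FPKM, unscaled FPKM, upper quartile scaling, run as replicate block, the later set alone, no trend, and each library left out. Members and gene lists were chosen with earlier results of these data known. Named genes were the members, Creb1, the 8 long named genes most correlated with each member (1 is not reported here), the bHLH-PAS family, 7 reported Npas4 targets, Fos, Egr1, Nr4a1 and Arc, and the 2 highest genes of other lists. Exceptions within a list, and Tiparp, were named after their values were seen.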

Additional observations from a re-analysis of the deposited data

Results flagged for a closer look

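Of 147 sets of 4 libraries (49 genes in S40A, WT and GFP at 8 h), 6 held a library far from the other 3, and chance gives about 1 in 20 sets. Npas4, Arnt and Arnt2 were not among them. Arntl2, a Bmal paralogue, was 1.94 scaled FPKM in S40A replicate 2, against 1.12 to 1.14 in the others. Pim1, a reported Npas4 target, was 35.8 scaled FPKM in S40A replicate 4, against 4.71 to 8.27, and 33.4 in GFP replicate 4, against 8.62 to 11.1, and both libraries belong to run D2. Elmsan1, among the genes most like Npas4, was 4.24 scaled FPKM in GFP replicate 3, the library with the lowest Npas4 level, against 8.15 to 8.93. Tnrc6a and Fubp3, among the genes most like Arnt, were 8.40 and 7.01 scaled FPKM in WT replicate 1, the library with the lowest Arnt level, against 10.9 to 11.1 and 9.00 to 9.23.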

How the results depend on the processing

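Of 351 member values under alternatives other than leaving out a library, 339 kept their direction and their side of the threshold. The direction turned for Arnt in WT minus GFP at 8 h with upper quartile scaling (0.014) and for Arnt in S40A minus GFP at 8 h (-0.02), Arnt2 in S40A minus WT at 4 h (0.011) and Arnt2 in B minus A (-0.09) with FPKM as deposited. With the later set alone it turned for Arnt (0.16) and Arnt2 (-0.0063) in WT minus GFP, Npas4 (0.63) and Arnt (-0.12) in S40A minus GFP, and Arnt (-0.28) in S40A minus WT, all at 8 h. Without a filter the Npas4 D2 minus D1 difference (1.31) and the Arnt B minus A difference (-0.65) no longer passed, and FPKM as deposited made Arnt2 in D2 minus D1 (-0.39) a call. The cause of these changes was not tested.

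Counts of called genes moved by over 1.5 times in these settings. The later set alone called 2 genes for WT minus GFP, 3 for S40A minus GFP, 5 for S40A-S133A minus GFP, 6 for the mean CREB effect, 1 for S40A minus WT and 3 for S40A-S133A minus WT. No filter called 2 for S40A-S133A minus WT, 4 for S40A minus WT at 4 h, 3 for the S40A effect at 8 h less 4 h and 3 for C2 minus C1. A minimum of 5 FPKM called 1 for the WT effect at 8 h less 4 h, and FPKM as deposited 4437 for D2 minus D1.

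Deviations from group means correlated between libraries of 1 run at 0.546 to 0.563 at 4 h, where all 3 pairs were over 0.1. They correlated at 0.0669 to 0.396 in the D runs, with 8 of 10 pairs over 0.1, but at -0.0409 to 0.0502 in the C runs. Replicate numbers were taken to pair libraries at 4 h. The main fit at 8 h left this pairing out although the D libraries shared deviations, so its intervals can be too wide. With run as a replicate block, S40A minus WT at 4 h called 7 genes and no member changed its call. The block narrowed the Npas4 interval for WT over GFP at 8 h to 0.479-fold to 1.77-fold. In log2 units the blocked Npas4 intervals against GFP at 8 h were -0.88 to 1.55 with S40A-S133A and -0.75 to 1.68 with S133A. With S40A the interval was -0.95 to 0.93, and all of these included 0. Genes at an unadjusted p under 0.05 by limma rose from 716 to 1273 for S40A minus GFP at 8 h, with 1 gene called in both fits.

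Leaving out each library in turn gave these ranges of log2 differences for Npas4, Arnt2 and Arnt, in that order. WT minus GFP at 8 h spanned -0.62 to 0.31, 0.022 to 0.14 and -0.085 to 0.12, with 1 gene called. S40A minus GFP at 8 h spanned -0.51 to 0.42, 0.032 to 0.19 and -0.046 to 0.090, with 1 gene called. S133A minus GFP at 8 h spanned -0.20 to 1.04, -0.015 to 0.51 and -0.091 to 0.042, with 2 to 9 genes called. S40A-S133A minus GFP at 8 h spanned -0.33 to 0.91, 0.085 to 0.50 and -0.13 to 0.0019, with 1 to 10 genes called. Any CREB form minus GFP at 8 h spanned -0.42 to 0.67, 0.12 to 0.25 and -0.078 to 0.038, with 2 to 11 genes called. S40A minus WT at 8 h spanned -0.29 to 0.49, -0.037 to 0.13 and -0.10 to 0.099, with 0 genes called. S133A minus WT at 8 h spanned 0.063 to 1.01, -0.084 to 0.44 and -0.098 to 0.093, with 2 to 8 genes called. S40A-S133A minus WT at 8 h spanned -0.068 to 0.94, 0.016 to 0.43 and -0.14 to 0.053, with 1 to 9 genes called. WT minus GFP at 4 h spanned -0.48 to 1.18, -0.23 to 0.045 and -0.35 to 0.24, with 12 to 29 genes called. S40A minus GFP at 4 h spanned -1.45 to 0.82, -0.28 to 0.044 and -0.40 to 0.52, with 15 to 34 genes called. S40A minus WT at 4 h spanned -1.79 to 0.47, -0.18 to 0.14 and -0.35 to 0.57, with 0 to 31 genes called. WT minus GFP at 8 h less 4 h spanned -1.30 to 0.36, 0.024 to 0.30 and -0.24 to 0.35, with 2 to 7 genes called. S40A minus GFP at 8 h less 4 h spanned -0.83 to 1.44, 0.077 to 0.40 and -0.50 to 0.42, with 1 to 11 genes called. D2 minus D1 at 8 h spanned 1.06 to 1.55, -0.32 to -0.16 and -0.12 to 0.0067, with 1535 to 3377 genes called. C2 minus C1 at 8 h spanned -0.83 to 0.29, -0.16 to 0.048 and 0.090 to 0.38, with 0 to 203 genes called. B minus A at 4 h spanned 1.53 to 1.96, 0.11 to 0.30 and -0.75 to -0.52, with 459 to 5236 genes called. Fits at 4 h that leave 1 library in a group assume that it varies like the others.

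The limits are the 2 libraries in each group at 4 h and of S133A and S40A-S133A, and the B minus A and D2 minus D1 differences of Npas4. These run differences were larger than the virus differences of Npas4 in the main fits, though single runs held virus differences as large as -1.56 (S40A minus WT in C2). Further limits are FPKM without counts, and run A values that often lie outside their own deposited intervals.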
